A study of Mus musculus with 6 samples.

Results

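The respiratory chain subunits encoded in the nucleus were compared between mesenchymal stem cells (MSC) and neural crest stem cells (NCSC) of adult mouse bone marrow. A gene was a member if its symbol belonged to the Nduf, Sdh, Uqcr or Cox4 to Cox8 families and if at least 1 probe set, the group of short probes that reports a transcript on the array, was annotated to that gene alone. This gave 64 genes of the 18193 genes with such a probe set. They comprised 33 subunits of complex I, 4 of complex II, 8 of complex III and 19 of complex IV. Ndufa4 and Ndufa4l2 were placed in complex IV, where their proteins are now assigned. The members were covered by 133 probe sets.

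The respiratory chain of the inner mitochondrial membrane passes electrons from NADH and succinate to oxygen and pumps protons, and ATP synthase uses the proton gradient to make ATP. Complex I oxidises NADH, complex II oxidises succinate, complex III carries electrons from ubiquinone to cytochrome c, and complex IV reduces oxygen. Most subunits are encoded on many different chromosomes of the nucleus and are imported, while a few are encoded by mitochondrial DNA. Stromal cells of the marrow can draw on both glycolysis and respiration.

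The study asked in what the cell types resemble each other and in what they differ. Each was represented by 3 arrays of total RNA. All 6 samples carried the wnt1/CRE-R26R-lacZ genotype, in which Cre recombinase driven by Wnt1 sequences switches on a lacZ reporter in neural crest descendants. The mice were adults 10 weeks of age on a C57BL/6 x SV129 background and are labelled female. The cells received no treatment and were kept in Mesencult medium through 5 or more passages, after which clones were selected. The labels speak of biological replicates without saying whether these were separate mice or clones. A p-value here weighs the difference between the types against the spread among these samples only, and that spread may be technical. If each cell type was 1 clone, what is particular to a clone and what is particular to a cell type cannot be told apart.

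Values are log2 of the deposited GCRMA intensity. A gene was tested if 1 of its probe sets was above a limit of 4 on at least 3 of the 6 arrays, and the brightest such probe set stood for the gene. A difference is the mean of NCSC minus that of MSC in log2 units, where 1 is a 2-fold change, fitted with limma over all 10501 genes that passed. A gene was called higher or lower at a Benjamini-Hochberg adjusted p under 0.05 over those genes. Of all tested genes, 64.1% were called, so a call by itself is common in these data.

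The arrays fell into their labelled cell types, with correlations across tested genes of 0.985 to 0.997 within a type and 0.756 to 0.772 between types. The neural crest markers Sox10, Foxd3, Ngfr, Erbb3, Sox2 and Tfap2a were higher in NCSC, in 6 of 6 cases. Their mean level was 3.40 to 3.75 on the MSC arrays and 11.84 to 12.13 on the NCSC arrays. Of these 6, only 1 was above the limit on all 6 arrays. A marker under the limit in MSC could pass the filter only through high NCSC arrays, so the count is no independent support. Among 7 stromal markers, Vcam1, Pdgfra and Prrx1 were lower in NCSC, Cd44, Eng and Nt5e were higher, and Thy1 was at the lowest value of the table, 2.12, on all arrays. The 6 endothelial markers and the blood cell marker Ptprc were at that value too, as were Myod1 and Myog of muscle. Of the other blood cell and macrophage markers, Cd68 was at least 27.9-fold higher in NCSC, and the mean of the 7 was 2.69 to 2.99 in MSC and 3.35 to 3.48 in NCSC. Of 5 adipocyte markers, 2 were tested, Fabp4 and Pparg, and both were lower in NCSC. None of Cd68, Fabp4 and Pparg was above the limit on all 6 arrays, so their calls are no independent support either. Adipoq, Lep and Cidec did not pass the filter. The part of these markers in the results below was not tested. In RNA from a whole culture, fewer cells of a type and less RNA per cell cannot be told apart. One label went against the data: Xist, transcribed from the inactive X chromosome of female cells, was at 2.12 to 2.13 on all 6 arrays, while the Y-linked genes Eif2s3y and Uty were above the limit on all 6. Kdm5d, also Y-linked, was at 2.12 to 2.16 in MSC and 8.58 to 9.24 in NCSC.

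Of the 64 members, 56 were tested, namely 32 of complex I, all of complexes II and III, and 12 of complex IV. In NCSC, 20 were higher and 13 lower, and 23 were not called. These shares, 35.7% and 23.2%, stood beside 35.0% and 29.1% of all tested genes. In either direction 58.9% of the members were called, against 64.1% of all tested genes and 59.3% of the 1762 tested genes with a mean log2 intensity above 12. The median difference of the members was 0.12, against 0.06 over all tested genes. The members' shares were thus near those of all tested genes.

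The differences were small in most members. The median size of a difference, without its sign, was 0.36 among members and 0.55 over all tested genes. Only Ndufs1, Ndufb6, Cox7a1 and Cox7c were called with a change of 2-fold or more, 4 of 56 members, while 29.0% of all tested genes were. For 47 members the 95% confidence interval lay wholly within a 2-fold change either way, beside 55.3% of all tested genes. The members were brighter, with a median level of 13.20 against 9.72 over all tested genes, and brighter genes differed less. The SD of the differences was 1.85 over other tested genes with a chromosome and 0.72 over those with a mean above 12. Over the members without Cox7a1 it was 0.48, so small differences are not particular to the members. The 3 MSC arrays and the 3 NCSC arrays did not overlap for 38 members, and they did not overlap for 71.2% of all tested genes. The members' median level was 13.09, 13.23 and 13.07 on the MSC arrays and 13.14, 13.34 and 13.16 on the NCSC arrays, so the second array of each type was the highest. Within NCSC, the members were a median of 0.18 higher on array 2 than on array 1, beside the median difference of 0.36 without sign between the cell types.

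By complex, the median difference was 0.09 in complex I, 0.36 in complex II, 0.05 in complex III and 0.12 in complex IV. Complex I had 12 subunits higher, 8 lower and 12 not called. Complex II had 3 higher, none lower and 1 not called. Complexes III and IV each held equal numbers of higher and lower subunits, 2 and 2 of 8 in complex III and 3 and 3 of 12 in complex IV. The subunits of complexes I, III and IV thus did not move as a block.

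**Figure D1:**
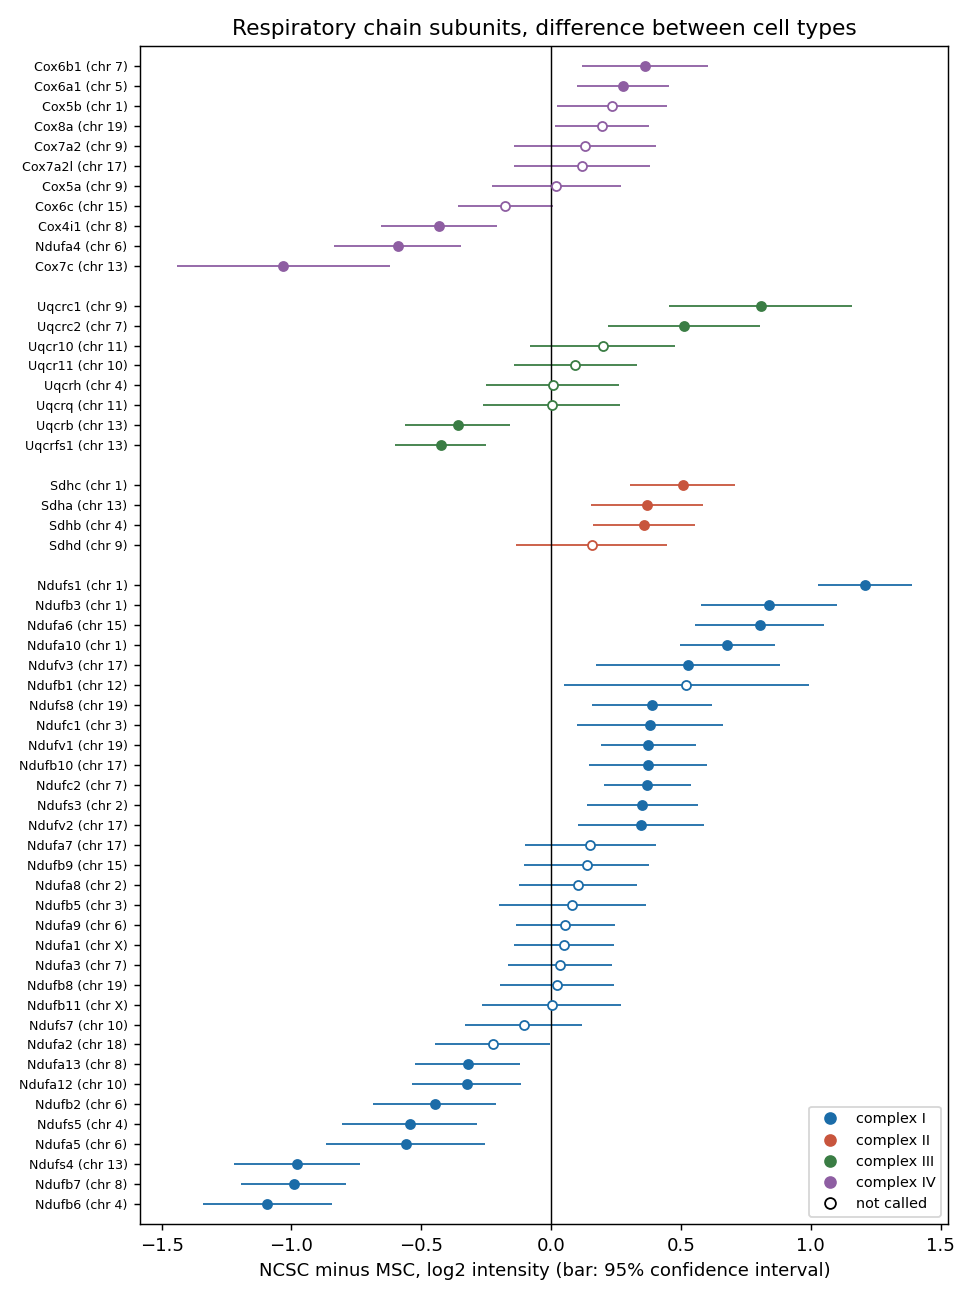
Difference between NCSC and MSC (log2 intensity, horizontal axis) for 55 tested subunits grouped by complex, with the chromosome of each gene in brackets. Points are limma estimates from 3 arrays against 3, bars are 95% confidence intervals, and open points were not called; Cox7a1 is left out because its fitted value of 4.45 lies far outside the axis. Complexes I, III and IV hold points on both sides of 0.

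Promoter sequences are shown for 5 genes to set side by side members that were called in opposite directions. They are the 250 bases before the RefSeq start of the gene, on the gene's own strand, in GRCm38.p6. Ndufb3 lies on chromosome 1 and was higher in NCSC, Ndufb7 lies on chromosome 8 and was lower, Ndufb6 and Sdhb share chromosome 4 and were called in opposite directions, and Cox7a1 on chromosome 7 had the largest difference. The windows are chr1:58586147-58586396 on the plus strand for Ndufb3, chr8:83566508-83566757 plus for Ndufb7, chr4:40279422-40279671 minus for Ndufb6, chr4:140961021-140961270 plus for Sdhb and chr7:30183921-30184170 plus for Cox7a1. Capitals mark matches to CATGCGC, part of the recognition sequence of NRF1, or to CCGGAAG, the core of sites for ETS factors such as GABP, on either strand.
Ndufb3: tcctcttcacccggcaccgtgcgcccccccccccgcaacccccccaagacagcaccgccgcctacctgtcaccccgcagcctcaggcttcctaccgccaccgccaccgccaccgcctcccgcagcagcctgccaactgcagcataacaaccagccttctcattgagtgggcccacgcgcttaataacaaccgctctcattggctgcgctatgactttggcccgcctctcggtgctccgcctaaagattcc
Ndufb7: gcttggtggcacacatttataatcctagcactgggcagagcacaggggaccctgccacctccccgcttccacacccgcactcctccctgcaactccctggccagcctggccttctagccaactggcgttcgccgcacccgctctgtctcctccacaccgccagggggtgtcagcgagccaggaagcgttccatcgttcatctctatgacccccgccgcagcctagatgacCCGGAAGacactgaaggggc
Ndufb6: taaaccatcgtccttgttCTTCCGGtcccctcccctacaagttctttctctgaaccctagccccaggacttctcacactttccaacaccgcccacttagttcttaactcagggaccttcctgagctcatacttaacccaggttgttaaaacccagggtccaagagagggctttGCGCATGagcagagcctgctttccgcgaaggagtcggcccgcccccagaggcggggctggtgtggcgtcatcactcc
Sdhb: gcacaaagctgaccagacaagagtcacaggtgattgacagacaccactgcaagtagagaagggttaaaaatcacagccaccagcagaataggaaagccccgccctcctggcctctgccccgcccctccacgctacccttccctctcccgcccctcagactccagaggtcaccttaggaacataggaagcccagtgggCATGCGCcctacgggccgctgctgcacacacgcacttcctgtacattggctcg
Cox7a1: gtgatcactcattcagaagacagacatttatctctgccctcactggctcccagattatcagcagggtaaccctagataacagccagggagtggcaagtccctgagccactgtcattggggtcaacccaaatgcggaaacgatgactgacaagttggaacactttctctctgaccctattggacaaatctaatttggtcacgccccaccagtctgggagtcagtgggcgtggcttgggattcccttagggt

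NRF1 and GABP are transcription factors known for acting on many respiratory chain genes, and YY1, with the motif ATGGCGG, is another. RefSeq windows were matched for 51 of the 64 members and for 47 of the 56 tested ones. The NRF1 letters were in 6 of the 47 windows, 12.8%, and in 3.32% of the windows of all 27025 genes. The ETS letters were in 8 windows, 17.0%, and in 7.05% of all. The YY1 letters were in 3 windows, 6.38%, and in 2.19% of all. The 27025 genes were not limited to the 10501 tested ones, so these shares do not show what is particular to respiratory chain genes. Where a gene had several windows, the first listed was used. Both strands were searched. The NRF1 letters read on the opposite strand end in ATG, with which the YY1 letters begin, so these motifs can overlap.

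The motifs stood before members of either direction. Of the members higher in NCSC, 3 of 17 windows held the NRF1 letters, 3 the ETS letters and none the YY1 letters. Of the members lower in NCSC, the counts were 1, 2 and 1 of 11, and of those not called 2, 3 and 2 of 19. Ndufb6 had both the ETS letters, 232 bases before the start, and the NRF1 letters, 77 bases before it. Sdhb, on the same chromosome and called in the opposite direction, had the NRF1 letters 53 bases before its start. Ndufb7 had the ETS letters 20 bases before its start, and Ndufb3 and Cox7a1 had none of the 3 motifs in these windows. A match is a string of letters and no measured binding site.

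Complex I is the largest complex of the chain, an L-shaped assembly with an arm in the matrix, where NADH is oxidised, and an arm in the membrane, where protons are pumped. Among its core subunits encoded in the nucleus, which carry the flavin and the iron-sulphur clusters or line the quinone site, 5 of 6 tested were higher in NCSC and none was lower. Higher were Ndufs1, Ndufs3, Ndufs8, Ndufv1 and Ndufv2. Over all tested genes 35.0% were higher. The other core subunit tested was Ndufs7, with a difference of -0.11 (95% confidence interval -0.33 to 0.12).

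Ndufs1, the large iron-sulphur subunit at the NADH-oxidising tip, showed the largest difference of complex I. Its log2 intensity was 10.85, 10.89 and 10.91 on the MSC arrays and 12.15, 12.09 and 12.04 on the NCSC arrays. All 3 NCSC arrays were above all MSC arrays, by far more than the spread within either type. The difference was 1.21 ± 0.074 (SE, n = 3 and 3), 2.31-fold, with an adjusted p of 3.64e-05.

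The other higher core subunits differed less. Ndufs8, an iron-sulphur protein near the quinone site, was 13.97, 13.87 and 14.04 in MSC and 14.31, 14.48 and 14.27 in NCSC. Ndufv1, which binds NADH and the flavin, was 11.38, 11.28 and 11.40 in MSC and 11.72, 11.70 and 11.76 in NCSC. In both genes the groups did not overlap, with differences of 0.39 ± 0.095 (adjusted p = 0.012) and 0.37 ± 0.075 (adjusted p = 0.00526). Ndufs3 and Ndufv2 had differences of 0.35 each (adjusted p = 0.0129 and 0.0227). Ndufv2 was not called without MSC replicate 2 (adjusted p = 0.0511), MSC replicate 3 (adjusted p = 0.0552) or NCSC replicate 2 (adjusted p = 0.0714). Its other 2 probe sets gave 0.15 and 0.16 and were not called among probe sets, and of the other 4 of Ndufs8, 2 were called higher and 2 were not called.

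In the NADH-oxidising tip as a whole, the N module, 5 of 9 tested subunits were higher and 2 lower, beside 35.0% and 29.1% of all tested genes. Ndufa6, a LYR-family subunit of the matrix arm, was 12.46, 12.47 and 12.54 in MSC and 13.26, 13.47 and 13.16 in NCSC. The NCSC arrays were all higher, by 0.80 ± 0.10 (adjusted p = 0.000767). Ndufv3, a small accessory subunit, was higher by 0.53 ± 0.15 (adjusted p = 0.0196). Ndufv3 lost its call when MSC replicate 1 or 3 or NCSC replicate 1 or 2 was left out, with adjusted p of 0.0586 to 0.0693.

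Ndufs4, an accessory subunit needed to attach the tip, was lower in NCSC. Its brightest probe set was 11.97, 12.13 and 11.99 in MSC and 10.92, 11.18 and 11.05 in NCSC. The NCSC arrays lay below the MSC arrays, with a difference of -0.98 ± 0.10 (adjusted p = 0.000295). The probe sets of this gene disagreed: another 2 gave -1.10 and 0.64, each called when probe sets were tested one by one. Of 34 members with several kept probe sets, Ndufs4 was the only one with calls in opposite directions, and in 10 the probe sets differed in call. These were Cox5b, Cox6b1, Cox8a, Ndufa7, Ndufb2, Ndufs4, Ndufs8, Ndufv2, Sdha and Uqcr10. Ndufa12, another accessory subunit of this module, was also lower, with -0.33 ± 0.086 (adjusted p = 0.0163). Ndufa12 lost its call without MSC replicate 3 (adjusted p = 0.0583) or NCSC replicate 1 (adjusted p = 0.0549). Ndufa2 (-0.23) and Ndufa7 (0.15) were not called.

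In the Q module, which hands electrons to ubiquinone, 4 listed subunits were tested. Ndufs3 and Ndufs8 were higher, Ndufa5 was lower and Ndufs7 was not called. Ndufa9 (0.05, not called) was on none of the module lists. Ndufa5 was 13.69, 13.58 and 13.80 in MSC and 12.92, 13.17 and 13.31 in NCSC. All NCSC arrays were lower, and their spread was wider than that of MSC. The difference was -0.56 ± 0.13 (adjusted p = 0.00863).

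The membrane arm split evenly, with 5 of 18 tested subunits higher, 5 lower and 8 not called (27.8% in each direction, beside 35.0% and 29.1% of all tested genes). Ndufb3, a small subunit of this arm, was 11.63, 11.85 and 11.55 in MSC and 12.41, 12.60 and 12.54 in NCSC. Every NCSC array exceeded every MSC array, by 0.84 ± 0.11 on average (adjusted p = 0.000823). Ndufa10, which resembles nucleoside kinases, was higher by 0.68 ± 0.075 (adjusted p = 0.000415), and Ndufb10, Ndufc1 and Ndufc2 by 0.37 to 0.38. Ndufc1 was not called without MSC replicate 1 or 3 or NCSC replicate 2, with adjusted p of 0.0722 to 0.0913.

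On the lower side, Ndufb6 was 13.94, 14.11 and 14.03 in MSC and 12.77, 13.00 and 13.03 in NCSC. The groups were a long way apart, and the difference of -1.09 ± 0.10 (adjusted p = 0.000204) was a 2.13-fold decrease. Ndufb7, which sits on the outer face of the membrane arm, was 12.29, 12.44 and 12.31 in MSC and 11.29, 11.37 and 11.40 in NCSC. It too was lower on every NCSC array, with a difference of -0.99 ± 0.083 (adjusted p = 0.000128). Ndufs5, Ndufb2 and Ndufa13 had differences of -0.54, -0.45 and -0.32 and were called lower.

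The 12 complex I subunits that were not called had differences of -0.23 to 0.52. Besides Ndufs7, Ndufa2 and Ndufa7 these were Ndufb11 (0.0015), Ndufb8 (0.02), Ndufa3 (0.03), Ndufa1 (0.05), Ndufa9 (0.05), Ndufb5 (0.08), Ndufa8 (0.10), Ndufb9 (0.14) and Ndufb1 (0.52). Ndufb1 was dim, at 6.39 to 6.63 in MSC and 6.63 to 7.35 in NCSC, and its interval of 0.05 to 0.99 was the widest of the complex. Without NCSC replicate 1 its difference was 0.72 with an adjusted p of 0.00692. Ndufb4 was not tested, since its probe set stood at 2.12 on all arrays.

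Ndufa1 and Ndufb11 are the X-linked subunits. Ndufa1, needed to build the membrane arm, was 14.50, 14.51 and 14.46 in MSC and 14.48, 14.63 and 14.51 in NCSC. Ndufb11 was 13.67, 13.63 and 13.58 in MSC and 13.43, 13.79 and 13.65 in NCSC. The groups overlapped in both genes. The intervals of the differences were -0.14 to 0.24 for Ndufa1 and -0.27 to 0.27 for Ndufb11. The label female, which Xist and the Y-linked genes went against, touches these subunits.

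Complex II, succinate dehydrogenase, is shared by the respiratory chain and the tricarboxylic acid cycle and has no subunit encoded in mitochondrial DNA. It had 3 of 4 subunits higher in NCSC and none lower, and the range of its differences was 0.16 to 0.51. With 4 genes, and 35.0% of all tested genes higher, the count is a description of these genes.

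Sdhc, one of the membrane anchors, was 11.70, 11.53 and 11.65 in MSC and 12.10, 12.19 and 12.11 in NCSC. Sdhb, the iron-sulphur subunit, was 12.07, 12.01 and 11.96 in MSC and 12.31, 12.46 and 12.35 in NCSC. For both, all NCSC arrays were above all MSC arrays. The differences were 0.51 ± 0.083 (adjusted p = 0.00228) for Sdhc and 0.36 ± 0.081 (adjusted p = 0.00883) for Sdhb.

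Sdha, the flavoprotein that oxidises succinate, was 11.56, 11.63 and 11.59 in MSC and 11.98, 12.07 and 11.84 in NCSC by its brightest probe set. The groups did not overlap, and the difference was 0.37 ± 0.089 (adjusted p = 0.0115). A second probe set of Sdha gave -0.03, with an adjusted p of 0.803 among probe sets. The mean of both gave 0.17 (adjusted p = 0.0833), so the call of Sdha rests on 1 probe set. Sdhd, the other membrane anchor, was 11.94, 11.81 and 11.90 in MSC and 11.94, 11.91 and 12.27 in NCSC. Its groups overlapped, NCSC array 3 was the highest, and the difference of 0.16 was not called (interval -0.14 to 0.45).

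Complex III, the cytochrome bc1 complex, had its large core proteins higher and the Rieske protein lower. Uqcrc1, a core protein, was 12.22, 11.91 and 12.23 in MSC and 12.83, 12.80 and 13.16 in NCSC. Uqcrc2, the other core protein, was 13.73, 13.82 and 13.95 in MSC and 14.37, 14.51 and 14.15 in NCSC. Neither gene had overlapping groups, although both varied more within a type than most subunits. The differences were 0.81 ± 0.15 (adjusted p = 0.00341) and 0.51 ± 0.12 (adjusted p = 0.0104).

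Uqcrfs1, the Rieske iron-sulphur protein that takes electrons from ubiquinol, was 11.83, 11.91 and 11.90 in MSC and 11.44, 11.44 and 11.49 in NCSC. All 3 NCSC arrays were lower, with a difference of -0.43 ± 0.073 (adjusted p = 0.00275). Uqcrb, a subunit of the ubiquinone-binding region, had a difference of -0.36 ± 0.083 (adjusted p = 0.00976). Uqcrq (0.0017), Uqcrh (0.01), Uqcr11 (0.09) and Uqcr10 (0.20) were not called. For Uqcr10 the brightest probe set and the others disagreed: the other 2 gave -0.54 and -0.70 and were both called lower among probe sets, and the mean of its probe sets gave -0.35 (adjusted p = 0.029).

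Complex IV, cytochrome c oxidase, has a catalytic core made by the mitochondrion and a coat of nuclear subunits, several of which exist in forms used widely and in forms restricted to tissues such as heart, muscle, lung or testis. Of the 12 tested, Cox6a1, Cox6b1 and Cox7a1 were higher in NCSC, and Cox4i1, Ndufa4 and Cox7c were lower. The other 6 had differences of -0.18 to 0.24 and were not called. They were Cox6c (-0.18), Cox5a (0.02), Cox7a2l (0.12), Cox7a2 (0.13), Cox8a (0.20) and Cox5b (0.24). Without NCSC replicate 3, Cox5b was called higher (adjusted p = 0.0473).

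The widely used forms had small differences in both directions. Cox4i1, the largest nuclear subunit, was 14.76, 14.83 and 14.75 in MSC and 14.30, 14.49 and 14.25 in NCSC. Cox6b1, which helps join 2 units of the complex, was 14.38, 14.54 and 14.36 in MSC and 14.79, 14.91 and 14.66 in NCSC. NCSC arrays were the lower ones for Cox4i1 and the higher ones for Cox6b1, without overlap. The differences were -0.43 ± 0.093 (adjusted p = 0.00709) and 0.36 ± 0.10 (adjusted p = 0.0194). Cox6a1 was higher by 0.28 ± 0.073 (adjusted p = 0.0161), and without MSC replicate 3 it was not called (adjusted p = 0.068). Cox6b1 was not called without MSC replicate 1 or 3 or NCSC replicate 1 or 2, with adjusted p of 0.0572 to 0.0719. Ndufa4 had a difference of -0.59 ± 0.10 (adjusted p = 0.00271), with 14.33 to 14.45 in MSC and 13.69 to 13.97 in NCSC.

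Cox7a1, the form of subunit 7a known from heart and skeletal muscle, had the largest difference of all members. It was 3.01, 3.00 and 3.00 in MSC, under the limit, and 6.82, 7.68 and 7.88 in NCSC. It was above the limit on the NCSC arrays only, and it was at least 11.0-fold higher there when values under the limit were set to 4. The fitted difference of 4.45 ± 0.27 (adjusted p = 3.49e-05) depends on the values below the limit. The gene passed the filter only through the NCSC arrays, where it was high, so its call is no independent support. Without Cox7a1, 19 members were higher. Cox7a2, the widely used form of this subunit, was 14.31, 14.49 and 14.30 in MSC and 14.32, 14.58 and 14.60 in NCSC. Its groups overlapped (interval -0.14 to 0.40). Levels of different probe sets cannot be set against each other, so the share of each form is not given.

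The other restricted forms stayed below the filter. Cox4i2, Cox7b2, Cox8b and Ndufa4l2 were at 2.12 on all 6 arrays, and Cox8c at 2.13. Cox6a2, the muscle form of subunit 6a, was at 2.34 to 2.82. Cox6b2, a form known from testis, was at 3.80, 6.13 and 4.47 in MSC and 3.10, 3.21 and 2.69 in NCSC. It exceeded the limit on 2 MSC arrays and on no NCSC array, and was therefore not tested. Of the muscle markers, Myod1 and Myog were at 2.12 throughout, Des was higher in NCSC (at least 1.94-fold) and Acta1 lower. The part of muscle-type RNA in the value of Cox7a1 was not tested.

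Cox7c, a small subunit, was 6.10, 5.45 and 5.75 in MSC and 4.70, 4.81 and 4.70 in NCSC. The difference was -1.03 ± 0.17 (adjusted p = 0.00229), but the probe set was dim on every array and its MSC arrays varied more than those of most subunits (SD 0.33). Its second probe set did not pass the filter.

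**Figure D2:**
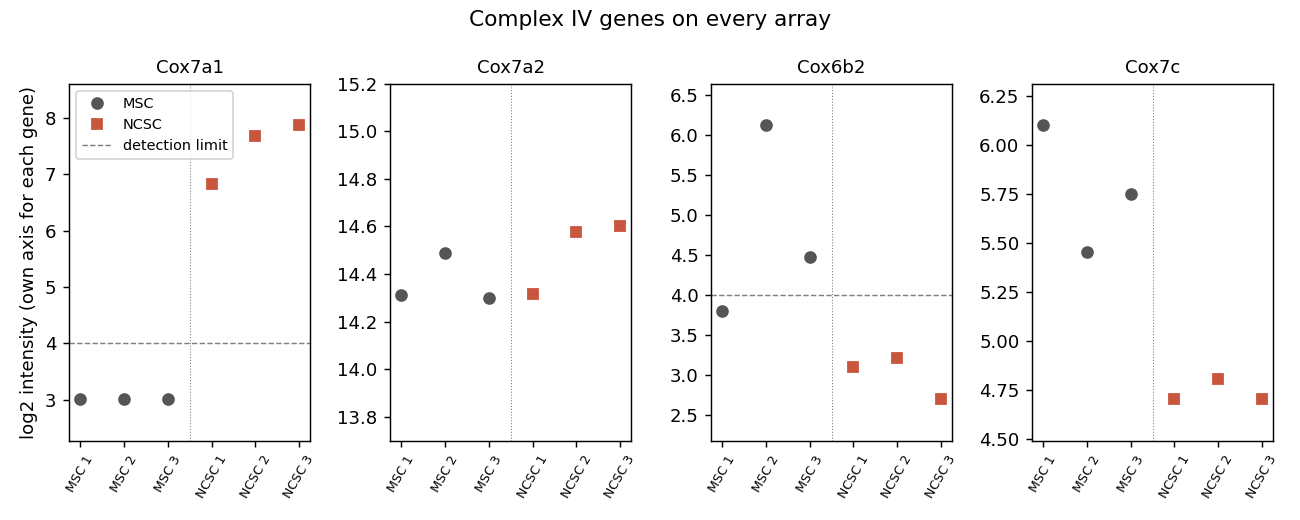
Log2 intensity (vertical axis, separate for each gene) of 4 complex IV genes on each of the 3 MSC arrays (circles) and 3 NCSC arrays (squares), with the limit of 4 as a dashed line where it falls in range. Cox7a1 lies at 3.00 to 3.01 in MSC and 6.82 to 7.88 in NCSC; Cox7a2 overlaps between the types; Cox6b2 exceeds the limit on 2 MSC arrays; Cox7c lies between 4.70 and 6.10.

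The chromosome of each gene was then set beside its difference. For each chromosome, the median difference was taken over every tested gene on it that was no member. These medians ran from -0.94 on chromosome 8 and -0.65 on chromosome 13 to 0.47 on chromosome 1 and 0.48 on chromosome 5. The values of neighbouring genes and of the members come from the same 6 arrays, so the comparison describes these arrays and has no test.

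The direction of the subunits followed that of their chromosome in most cases. On chromosomes with a median above 0, 17 of 30 tested members were higher, none was lower and 13 were not called. On chromosomes with a median below 0, 3 of 26 were higher, 13 were lower and 10 were not called. Of the 33 called members, 30 (90.9%) had the sign of their chromosome's median, and the exceptions were Sdha, Sdhb and Uqcrc1. Among other called genes with a chromosome, 73.4% of 6674 had that sign, and 75.2% of those with a mean above 12. In complex I all 20 called subunits had the sign of their chromosome. One of them, Ndufa6, lies on chromosome 15, whose median was 0.03, with 29.0% of its other genes higher and 26.8% lower. Chromosome 9, which holds Uqcrc1, had a median of -0.04, and chromosome 11 had -0.05. The sign of a median so near 0 says little about direction.

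Chromosome 8 had the lowest median, and 79.0% of its 566 other tested genes were lower in NCSC. Its 3 subunits, Ndufb7, Cox4i1 and Ndufa13, belong to 2 complexes, and all were lower. Chromosome 13 had 66.5% of its other genes lower, and Cox7c, Ndufs4, Uqcrfs1 and Uqcrb, from 3 complexes, were lower there. The remaining subunit on chromosome 13, Sdha, was higher. On chromosome 6, Ndufa4, Ndufa5 and Ndufb2 were lower and Ndufa9 was not called.

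Chromosome 1 had 56.3% of its 592 other genes higher in NCSC. Its subunits Ndufs1, Ndufb3, Ndufa10 and Sdhc were higher, and Cox5b was not called. Chromosome 7 had Cox7a1, Uqcrc2, Ndufc2 and Cox6b1 higher and Ndufa3 not called. On chromosome 17, with a median of 0.13, Ndufv3, Ndufb10 and Ndufv2 were higher, and Ndufa7 and Cox7a2l were not called. All 5 core subunits of complex I that were higher lie on chromosomes with a median above 0, and Ndufs7 lies on chromosome 10, whose median was -0.35.

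**Figure D3:**
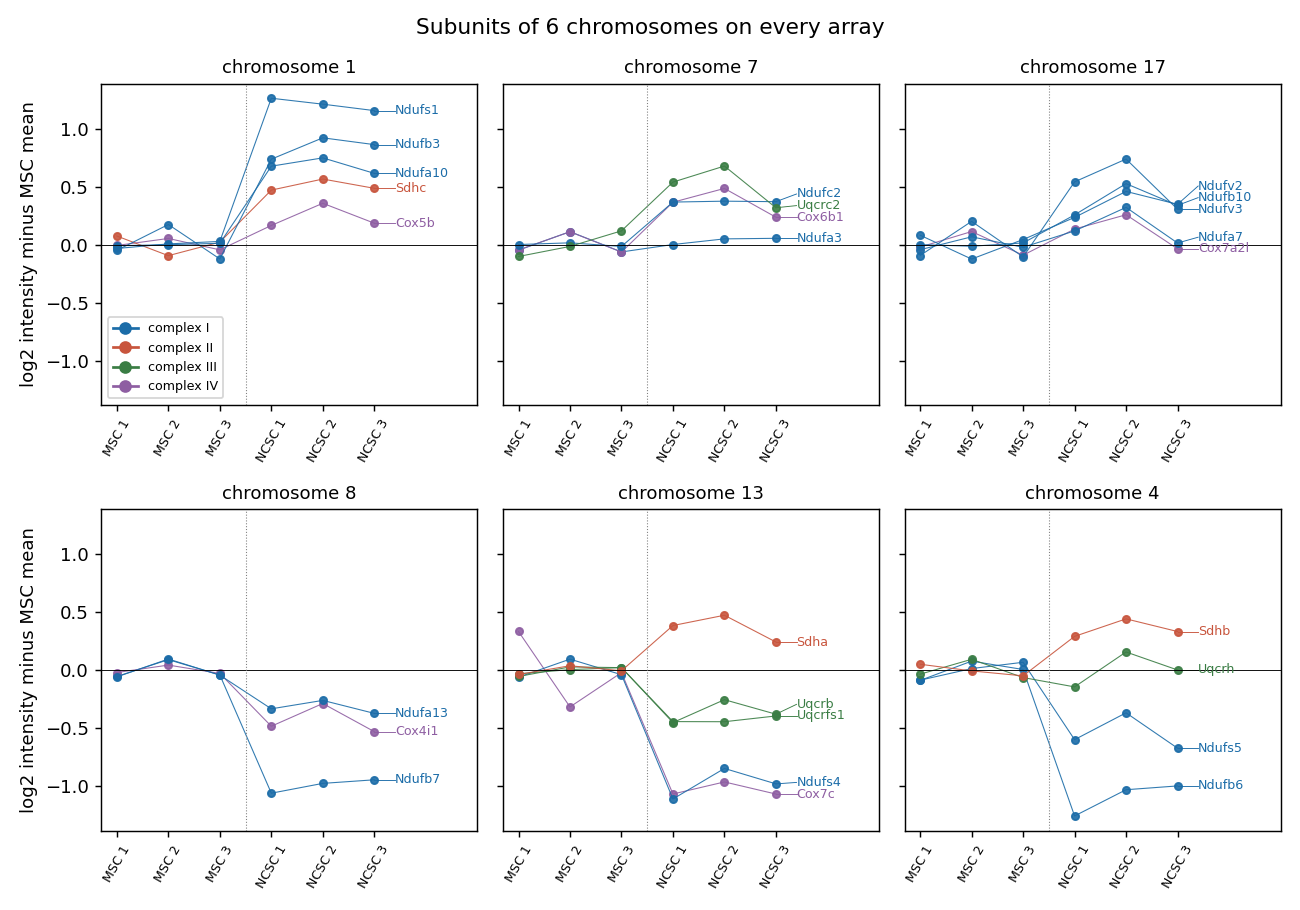
Log2 intensity of each subunit minus its MSC mean (vertical axis) on each of the 6 arrays, for chromosomes whose other genes had a median above 0 (1, 7 and 17, top) or below 0 (8, 13 and 4, bottom). Each point is 1 gene on 1 array, coloured by complex, and lines only tie the points of a gene together; Cox7a1 is left out. All 3 subunits of chromosome 8 are lower on every NCSC array, while Sdhb and Sdha are higher on every NCSC array of the chromosome 4 and 13 panels.

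Chromosome 4 showed the widest split in direction between complexes. Its other genes had a median of -0.43, and 56.5% of them were lower. Ndufb6 and Ndufs5 of complex I were lower, Uqcrh of complex III was not called, and Sdhb of complex II was higher. The differences ran from -1.09 for Ndufb6 to 0.36 for Sdhb, and the arrays of the cell types did not overlap in either gene.

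Across the 56 tested members, the difference and the chromosome median had a Pearson correlation of 0.55 and a Spearman correlation of 0.71. With no filter on low values, which brings in the members below the limit, the Pearson correlation was 0.20. Without Cox7a1 the Pearson correlation was 0.73 over 55 genes. It was 0.82 over the 32 genes of complex I, 0.81 over the 8 of complex III and 0.84 over the 11 of complex IV without Cox7a1, but 0.30 over the 4 of complex II. By sign alone, called or not, 31 of 32 tested subunits of complex I lay on the side of their chromosome, 9 of 12 of complex IV, 3 of 8 of complex III and 1 of 4 of complex II, beside 67.6% of the other genes. Subunits on chromosomes 9, 11 and 15, whose medians were near 0, enter these sign counts too. Over 10413 other tested genes the Pearson correlation was 0.22, and over the 1714 of these with a mean above 12 it was 0.40. Genes of a chromosome share 1 median and all genes share the 6 arrays, so these are descriptions across genes that are not independent.

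When the median of the 50 nearest tested genes on the chromosome took the place of the chromosome median, 31 of 33 called members had its sign. Uqcrc1 was the one that changed: the median of its chromosome was -0.04, and that of its 50 neighbours was 0.46. Sdha and Sdhb remained opposite to their neighbours, whose medians were -0.59 and -0.21.

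The spread of the differences was about the same within complexes as over all members, and it was smaller within chromosomes. Without Cox7a1, the SD of the differences was 0.48 over all 55 members and 0.49 within complexes. It was 0.37 within the 15 chromosomes that hold more than 1 member (52 members). After the chromosome median was subtracted from each of the 55 members it was 0.34. Over the other tested genes the same subtraction took the SD from 1.85 to 1.80. For those with a mean above 12 it went from 0.72 to 0.66. In complex II, with 4 genes, the subtraction widened it from 0.14 to 0.47.

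**Figure D4:**
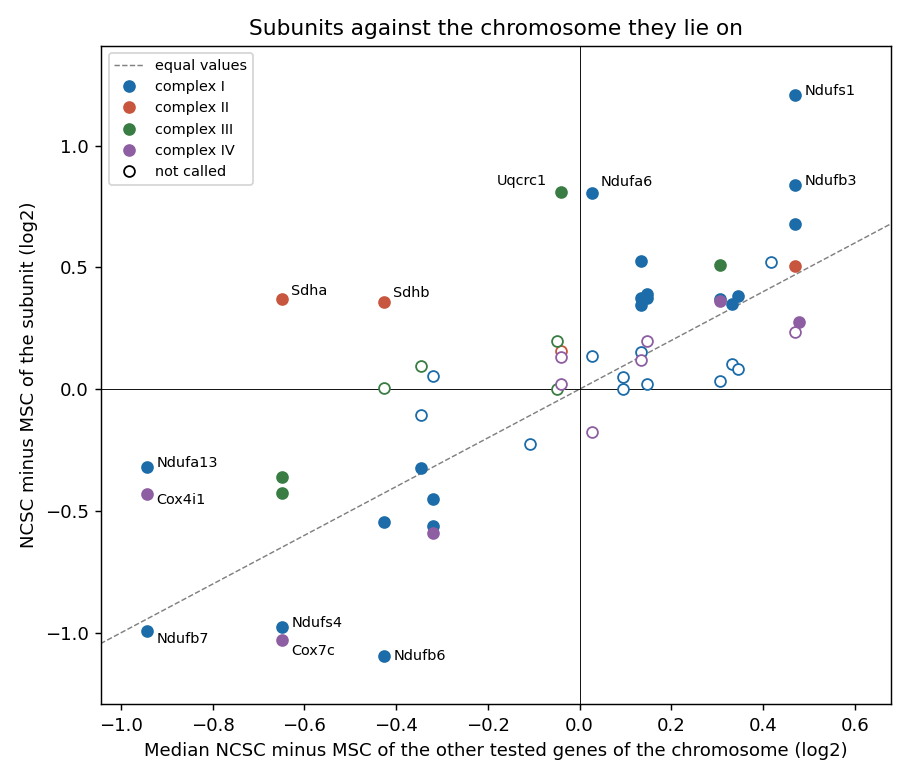
Difference between NCSC and MSC of each of 55 tested subunits (vertical axis, log2) against the median difference of the other tested genes on its chromosome (horizontal axis, log2). Colours give the complex, open points were not called, the dashed line marks equal values, and Cox7a1 is left out. Most called points lie in the lower left and upper right, with Sdha, Sdhb and Uqcrc1 in the upper left.

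Removing the median of each chromosome from every gene before the fit gave other calls. Of the members, 15 were then higher and 3 lower. Of all tested genes, 57.3% were still called, 29.9% higher and 27.5% lower, so a call relative to the chromosome is also common. Ndufb7 had -0.05 and Sdhc 0.03 by this measure, so both were close to the other genes of their chromosomes. Ndufb6 had -0.67 (adjusted p = 0.00221), Ndufs1 0.74 (adjusted p = 0.000352), Ndufa6 0.78 (adjusted p = 0.00114) and Uqcrc1 0.85 (adjusted p = 0.00351). Sdha had 1.02 (adjusted p = 0.000192) and Sdhb 0.78 (adjusted p = 0.000391), larger than their plain differences. Cox4i1 had 0.51 and Ndufa13 0.62, each called higher relative to chromosome 8 although lower in plain terms.

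Other mitochondrial genes were counted from lists made by function. Their counts stand beside 35.0% of all tested genes higher and 29.1% lower. In ATP synthase, which turns the proton gradient into ATP, 6 of 16 tested genes were higher, 3 lower and 7 not called, with a median of 0.17. The extremes among its called genes were Atp5j, a subunit of the stalk (0.44), and Atpif1, the inhibitor of the enzyme (-1.19). Its 9 called genes all had the sign of their chromosome median, with a Pearson correlation of 0.83 over 16 genes. Of the mitochondrial ribosome, 15 of 76 genes were higher and 25 lower, with a median of -0.02, and the correlation with the chromosome median was 0.72, with 35 of 40 called genes (87.5%) on the side of their chromosome. These genes ran from Mrpl4 (-1.28) to Mrpl44 (0.98).

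Among complex I assembly factors, which build the complex and are not part of it, 4 of 15 were higher, 4 lower and 7 not called. Ndufaf3 was 7.75, 7.46 and 7.58 in MSC and 9.74, 9.89 and 9.84 in NCSC. It was higher on every NCSC array, by 2.22 ± 0.10, on chromosome 9, whose median was -0.04. Ecsit, on the same chromosome, was lower (-1.20). Assembly factors of complexes II to IV had 7 of 25 higher, among them Surf1 (0.73), and 7 lower, among them the copper chaperone Cox11 (-1.03).

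Of the mobile carriers and the enzymes of coenzyme Q synthesis, 8 of 16 were higher and 3 lower, with a median of 0.21. Coq8b, a kinase-like protein of coenzyme Q synthesis, was at least 4.07-fold higher in NCSC. It was at 3.17, 3.72 and 3.26 in MSC, under the limit. Coq8b thus passed the filter only through the NCSC arrays, where it was high, so its call is no independent support. Etfa, which brings in electrons from fatty acid oxidation, was lower (-0.70). The tricarboxylic acid cycle had 3 of 12 higher, with Dld at 0.74, and 3 lower, with Suclg2 at -1.16. Protein import had 6 of 21 higher and 5 lower, from Timm8a1 (-1.11) to Tomm40l (1.03). For this list the relation to the chromosome median had a Pearson correlation of 0.48, a Spearman correlation of 0.29 and 7 of 11 called genes (63.6%) with the sign of their chromosome, below the 73.4% of other called genes.

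Among regulators of mitochondrial biogenesis, 4 of 13 were higher and 4 lower. Ppargc1b, a coactivator of respiratory genes, was 4.67, 3.68 and 4.22 in MSC and 7.54, 7.80 and 6.76 in NCSC. The NCSC arrays were all higher, with a fitted difference of 3.18 ± 0.35 that rests in part on an MSC array under the limit. The subunits of GABP moved in opposite directions: Gabpb1 was lower, with a difference of -1.37, and Gabpa, which binds DNA, was higher, with a difference of 0.66 (adjusted p = 0.00094). For the 13 subunits encoded in mitochondrial DNA, no probe set of 1 gene was found under the names searched, so they were not analysed here. The name mt-Atp6 was searched as Gm10925, so a probe set under another name may have been missed.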

How the data were processed

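Total RNA of 3 MSC and 3 NCSC samples was labelled with the 3' IVT Express kit and hybridised, per the labels. The authors deposited 1 intensity per probe set and array, not on a log scale, computed with GCRMA (background correction, normalization and summary of probes), per the submitters' processing notes; its version, settings and annotation are not given in the sources used here. The plan assumed log2 values, so log2 was taken before anything else, with no further normalization. The number of arrays limits the precision.

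Probe sets were named through the platform annotation, with symbols updated and chromosomes taken from RefSeq (GRCm38.p6). A probe set was kept if above 4 (log2) on at least 3 of 6 arrays, and the brightest kept one stood for a gene. Differences were fitted over 10501 genes with limma 3.58.1 (R 4.3.3; lmFit, then eBayes, no covariate, two-sided tests), with Benjamini-Hochberg adjustment, and the script was tested on simulated data. A fold written as "at least" belongs to a gene whose dimmer group had a mean no higher than 4, and sets that group's values to at least 4. Intervals are at 95%.

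Genes with full values are the members of complex II, the called members of the other complexes with the largest and the smallest differences (up to 5 each), the isoforms, the complex I core and the X-linked members, and every member not called is named. For other lists the extreme called genes are named. Members, complexes, gene lists and tests were chosen with earlier results of these data known. Whether replicate numbers pair the samples is not given in the labels. Deviations of same-numbered arrays correlated at -0.098, 0.062 and 0.073, which with 3 arrays per type cannot decide it. Promoter windows came from RefSeq, 250 bases before each start. Alternatives covered the filter, the choice of probe set, the fit, normalization, the floor, single arrays left out, the replicate block and chromosome medians removed.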

Additional observations from a re-analysis of the deposited data

How the results depend on the processing

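Leaving out single arrays gave 5706 to 7184 called genes, 15 to 21 members higher and 12 to 13 lower. The median difference of the members then ran from 0.062 to 0.17, of complex I from 0.047 to 0.15, of complex II from 0.31 to 0.40, of complex III from -0.02 to 0.11 and of complex IV from 0.070 to 0.18, and the correlation with the chromosome median from 0.540 to 0.556. The replicate block pairs arrays by number, although the labels do not say whether the numbers pair the samples. With it, 6257 genes were called in place of 6731, with 18 members higher and 13 lower. Cox6a1 and Ndufv2 lost their call.

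The correlation of 0.551 with the chromosome median was 0.203 with no filter, 0.728 for genes above the limit on all 6 arrays, 0.608 with values under 4 set to 4, 0.599 with the 50 nearest genes and 0.713 as Spearman's rho. It was 0.727 without Cox7a1 and 0.531 without Cox7c, both chosen after seeing the data. With no filter the median of complex IV was 0, since undetected genes enter it. With the mean of a gene's probe sets the median of complex II was 0.264, and Uqcr10 reversed to -0.35.

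With chromosome medians removed, members called lower numbered 3 in place of 13, and the medians were 0.489 for complex II, 0.266 for complex III and 0.0145 for complex IV. Reversed by this were Cox4i1 (0.51), Cox6a1 (-0.20), Ndufa12 (0.016), Ndufa13 (0.62), Ndufa3 (-0.28), Uqcrb (0.29) and Uqcrfs1 (0.22), by construction of this measure, which is relative to the chromosome. Of the 33 called members, 9 kept call and direction under all 16 alternatives for single members, and 26 when this one was left aside. Members taken by the symbol as annotated were the same genes.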

Other observations

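Of the probe sets annotated to several genes, 9 included a respiratory chain subunit, and 5 of these were above the limit on all 6 arrays. They were not tested, because the genes they stand for cannot be told apart. The probe sets shared by Ndufb4, Ndufb4b and Ndufb4c had NCSC minus MSC differences of 0.50 and 0.51, while the probe set of Ndufb4 alone was at the lowest value. The one shared by Ndufs6 and Ndufs6b was at 12.42, 12.67 and 12.62 in MSC and 12.18, 12.34 and 12.13 in NCSC, a difference of -0.36. The one shared by Ndufs5 and Ndufs5-ps gave -0.40, beside -0.54 for the probe set of Ndufs5 alone. The one shared by Ndufa11 and Ndufa11b gave -0.01.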
